A study of Mus musculus with 4 samples.

Results

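The change in the liver response between day 5 and day 8 after Cux2 siRNA was examined on all 4 arrays of the series, by subtracting the treated over control log2 ratio at day 5 from that at day 8. The subtraction was made within each replicate number, so that both arrays of a pair carried the treated pool in the same dye. It was made for all 25092 genes that were tested, of which 13827 carry a usable symbol, meaning one other than an accession, a clone name or a name given to a predicted gene. The mice were 8 week old females of CD-1, an outbred stock, and received either small interfering RNA (siRNA) against Cux2 or a non-specific siRNA. Treated liver RNA was pooled from 3 mice (replicate 1) and 2 mice (replicate 2) at day 5 and from 2 mice in each replicate at day 8. Control RNA came from 6 mice on every array by the sample labels, and from 13 mice in pools of 6 or 7 by the series description. The labels do not say which control pool was on which array or how long after the siRNA the control mice were killed. The treated pool was labelled with Alexa 647 in replicate 1 and with Alexa 555 in replicate 2 of both days. A pool of outbred mice is 1 sample here. For ratios over control, p-values rest on the spread between the arrays of a day. For the difference between days they rest on how far the 2 pair differences disagree, which leaves out the gap between replicates. Each spread is drawn towards a value taken from all genes, and with 2 pools a day it is poorly known.

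Cux2 is a DNA-binding protein of the homeobox class that livers of female mice make in far larger amounts than those of males, under control of the sex-specific pattern of pituitary growth hormone release. An siRNA leads the RNA-induced silencing complex to a matching messenger RNA, which is then cleaved. The silencing fades as the siRNA is lost or diluted. The comparison asked which genes lay closer to control at day 8 and which stayed where they were at day 5. Cux2 RNA itself lay closer to control at day 8 in both pairs, a difference that did not pass the test.

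The arrays came from 1 slide and 1 scan. Between 71.1% and 74.6% of the probes were well above background in each channel, and 0 spots were saturated. Spike-in controls returned slopes of 0.908 and 0.92 at day 5, against 0.918 and 0.923 at day 8 (measured against designed log ratios), a slight and similar compression. The 13 hepatocyte markers tested (Alb, Apob, Ttr and others) were well above background in the treated channel of both days. The replicate number, which is also the dye orientation, was a term of the fit for the difference between days.

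Cux2 lay below control on every array. In replicate 1 its log2 ratio was -1.91 on day 5 and -1.07 on day 8, and in replicate 2 it was -1.70 and -1.20. Each day 8 pool lay above both day 5 pools, by 0.84 and 0.50 within the pairs. The mean level was 28.6% of control at day 5 and 45.6% at day 8, a difference of 0.67 (95% interval 0.37 to 0.97) or 1.59-fold. This difference missed the threshold once adjusted over the genes tested (limma with the replicate number as a term, SE 0.11, unadjusted p = 0.0025, adjusted p = 0.492). The difference lay in the treated channel: its intensity was higher on the day 8 array by 0.90 and 0.66 in the 2 pairs, against 0.05 and 0.16 in the control channel. A single probe measured Cux2, and without background subtraction its difference was 0.37.

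Across the whole array 0 genes in either direction (0% of those tested) passed an adjusted p of 0.05 for the difference between days, and the smallest adjusted p was 0.366 (limma). At an unadjusted p under 0.05 there were 1679 genes (6.69%), and 620 (2.47%) when the replicate number was left out of the fit. All differences below are therefore values without a call. As a description, a gene was taken as apart between days when it differed by at least 1.5-fold in the same direction in both pairs. By that rule 48 genes (0.191%) were higher at day 8 and 24 (0.0956%) were lower. Of the 48, 17 had a usable symbol and were measured above background on both days, as were 13 of the 24. With the treated channel alone 61 genes (0.243%) were higher and 49 (0.195%) lower. With the control channel alone 3 genes (0.012%) were higher and 17 (0.0678%) lower on the day 8 arrays in both pairs, and none of the 72 genes was among them. That channel does not measure how far separate treated pools of 1 day differ, so it is no estimate of how many genes would pass by chance. Over all genes the 2 pair differences hardly followed each other (correlation 0.05). Where a range with 1 array left out is given below, the replicate number had to be dropped from the fit, so that the range also holds the gap between replicates.

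**Figure D1:**
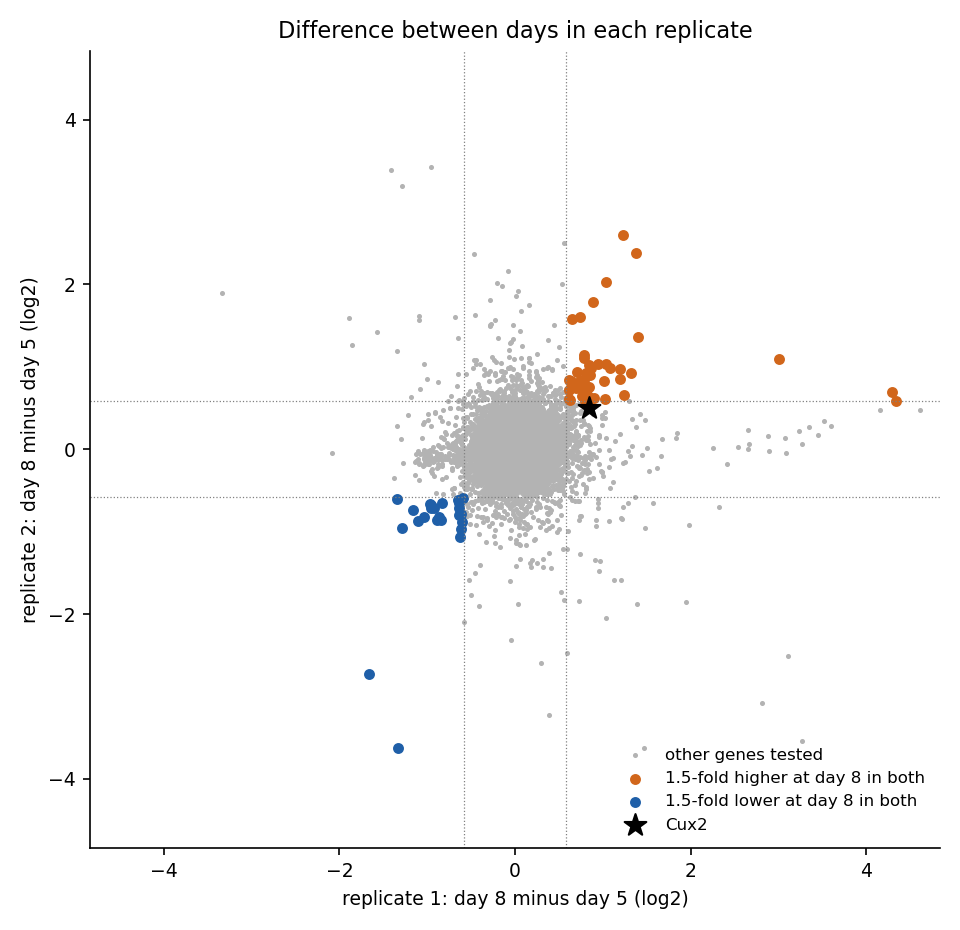
Day 8 minus day 5 difference of the treated over control log2 ratio in replicate 1 (horizontal axis) and in replicate 2 (vertical axis), 1 point per gene tested; dotted lines mark 1.5-fold. Most genes lie in a round cloud at 0, the 48 genes higher at day 8 in both replicates (orange) and the 24 lower (blue) lie in 2 corners, and Cux2 (star) sits at 0.84 and 0.50. The tail along the horizontal axis holds the pancreatic enzymes, which differ between days in replicate 1.

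Among raised genes that were apart between days towards control, Nat8f5 lay furthest from control and differed most. It belongs to the Nat8 family of membrane-bound N-acetyltransferases. Its log2 ratios were 3.71 and 4.21 at day 5 and 2.60 and 3.34 at day 8. Both day 8 pools lay below both day 5 pools, and all 4 remained far above control: the mean was 1556% of the control level at day 5 (adjusted p = 0.00392, limma) and 785% at day 8 (adjusted p = 0.00638). The difference was -0.99 (95% interval -1.25 to -0.73, adjusted p = 0.366). In replicate 1 the control channel moved the same way by -0.63, and in replicate 2 it moved by -0.06, against -1.74 and -0.92 in the treated channel. Nat8 itself, a close relative whose sequence an array probe may share in part, stayed high, at 3.98 and 3.66 on day 5 and at 3.58 and 3.73 on day 8. The other family members tested, Nat8f1, Nat8f2, Nat8f4 and Nat8l, differed between days by -0.06 to 0.09.

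Elovl6, which elongates long-chain saturated and monounsaturated fatty acids, had ratios of 1.29 and 1.77 at day 5, against 0.25 and 0.95 at day 8. Each pool stood lower at day 8, and the day groups did not overlap. The gene passed against control at day 5 (mean 1.53, SE 0.20, adjusted p = 0.0154, limma) and not at day 8 (mean 0.60, SE 0.20, adjusted p = 0.126). The difference of -0.93 (95% interval -1.18 to -0.68) lay in the treated channel (-1.04 and -0.79), while the control channel differed by -0.01 and 0.03. Neu3, a plasma membrane sialidase that acts on gangliosides, had ratios of 1.90 and 1.77 at day 5, against 0.94 and 1.1 at day 8. Celsr1, a cadherin of planar cell polarity, stood at 1.45 and 1.51 and then at 0.85 and 0.92. Both genes still passed against control at day 8, with adjusted p of 0.00747 for Neu3 and 0.00702 for Celsr1 (limma). Celsr1 lay just past the 1.5-fold limit in both pairs, and under 5 of 9 other settings it was not past the limit in both.

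Among lowered genes, Sult5a1, a cytosolic sulfotransferase, lay closer to control at day 8 in both pairs. Its ratios were -1.44 and -1.87 at day 5 and -0.81 and -1.11 at day 8, so that no day 8 pool was as low as a day 5 pool. Its mean level was 31.7% of control at day 5 (adjusted p = 0.00676, limma) and 51.4% at day 8 (adjusted p = 0.0195). The treated channel accounted for the difference, with 0.71 and 0.88 against 0.08 and 0.12 in the control channel.

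The stretch before the transcription start is shown for 3 of the raised genes that stood closer to control at day 8, because they differed between days in the same direction, and for Ciart, a clock gene described below that differed in the opposite direction. The sequences are from the RefSeq promoter table (build GRCm38.p6), where 5 of the 7 genes looked for had an entry. Celsr1 and Scd1 are named only. Each runs 5′ to 3′ over the 250 bases before the start, and capitals mark the motifs found on either strand. The motifs searched were ATCGAT and ATCAAT, which Cux proteins are known to bind, the E-box CACGTG bound by clock factors, the CCAAT box, and TCACNCCAC, a site for sterol regulatory element binding proteins. No motif contains another, and no 2 of the matches marked share a base.
Nat8f5, chr6:85820973-85821222, minus strand: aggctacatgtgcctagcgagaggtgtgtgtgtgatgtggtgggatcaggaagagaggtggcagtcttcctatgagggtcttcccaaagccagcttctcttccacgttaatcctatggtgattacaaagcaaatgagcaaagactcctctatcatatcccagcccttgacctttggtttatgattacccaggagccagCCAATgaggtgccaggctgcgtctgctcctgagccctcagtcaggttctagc
Elovl6, chr3:129532136-129532385, plus strand: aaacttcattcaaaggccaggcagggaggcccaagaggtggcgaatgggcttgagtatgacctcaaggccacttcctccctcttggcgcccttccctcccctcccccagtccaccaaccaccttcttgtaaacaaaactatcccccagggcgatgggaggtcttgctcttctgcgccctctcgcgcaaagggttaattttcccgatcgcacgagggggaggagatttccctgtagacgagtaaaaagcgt
Neu3, chr7:99828418-99828667, minus strand: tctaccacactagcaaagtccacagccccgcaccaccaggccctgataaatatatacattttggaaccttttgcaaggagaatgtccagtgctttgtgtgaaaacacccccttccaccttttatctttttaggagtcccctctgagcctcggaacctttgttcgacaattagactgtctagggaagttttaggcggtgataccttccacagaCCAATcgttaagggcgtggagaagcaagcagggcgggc
Ciart, chr3:95882229-95882478, minus strand: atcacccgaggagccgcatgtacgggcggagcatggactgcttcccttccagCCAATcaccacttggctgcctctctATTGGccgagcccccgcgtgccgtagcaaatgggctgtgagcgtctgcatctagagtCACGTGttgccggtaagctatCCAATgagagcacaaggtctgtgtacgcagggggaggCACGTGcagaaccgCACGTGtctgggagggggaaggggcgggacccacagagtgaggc
Nat8f5 and Neu3 each hold 1 CCAAT box, a motif found in 33.8% of the 32851 promoters of this length. Elovl6 and Sult5a1 hold none of the 5 motifs. Ciart holds 3 copies of CACGTG, which 6.02% of promoters carry at least once, and 3 CCAAT boxes. ATCGAT is present in 0.728%, ATCAAT in 6.72% and TCACNCCAC in 1.05% of promoters, and in none of these 5. A match is a run of letters and not a measured binding site.

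Elovl6 and Scd1 were the 2 lipogenesis genes tested that were apart between days, and both were lower at day 8. Scd1, the desaturase that makes monounsaturated fatty acids, had ratios of 1.05 (replicate 1) and -0.81 (replicate 2) at day 5, against -0.23 and -1.76 at day 8. It was lower at day 8 in both pairs, by 1.28 and 0.95, but its replicates stood on opposite sides of control at day 5, and it passed on neither day (adjusted p = 0.91 and 0.30, limma). Its difference between days was -1.12 (SE 0.11, adjusted p = 0.366), and 1.00 with the replicate number left out of the fit, which then counts the gap between replicates as spread. In replicate 1 the control channel was higher by 0.51 on the day 8 array. Of 24 lipogenesis genes tested, 7 were higher and 7 lower at day 8 in both pairs, beside 27.3% and 27.2% of all genes tested. Fasn (fatty acid synthase) stood at 0.68 and 0.99 and then at 0.41 and 0.77. The desaturase Fads2 ran the other way, from -0.10 and 0.00 to 0.39 and 0.16. The list's median difference was -0.03, against 0.00 over all genes, and 0.01 without day 8 replicate 2.

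Of the named conjugating enzymes, Gstm2 and Tpmt were lower at day 8, whereas the sulfotransferase Sult5a1 was higher. Gstm2, a glutathione transferase, had ratios of 1.04 and 1.08 at day 5, against 0.43 and 0.11 at day 8. It passed against control at day 5 (adjusted p = 0.00804, limma) and not at day 8 (adjusted p = 0.140). Tpmt, which methylates thiopurines, stood at 0.70 and -0.02 and then at 0.09 and -0.90, with overlap between the days. Of 19 targets of the oxidant sensor Nrf2, 9 were lower and 4 higher at day 8 in both pairs, beside 27.2% and 27.3% of all genes. Their median difference of -0.09 ran from -0.25 to 0.02 with 1 array left out, the sign changing without day 8 replicate 1. Gstm1 went from 1.26 and 1.12 to 0.84 and 0.85, and the epoxide hydrolase Ephx1 from 0.64 and 1.24 to 0.37 and 0.62. The glutathione synthesis subunits Gclc and Gclm were higher at day 8, by 0.31 and 0.25.

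The remaining named genes that were lower at day 8 have roles outside metabolism. Pfn2, an actin-binding profilin, had ratios of 1.12 and 1.03 at day 5, against -0.04 and 0.30 at day 8. Its second probe gave pair differences of -0.96 and -0.79. Rgs18, a regulator of G protein signalling found mainly in platelets and their precursors, stood at 0.71 and 0.59 and then at -0.17 and -0.26. The pair differences of its 2 probes lay between -0.88 and -0.71. Pfn2 and Rgs18 passed against control at day 5 (adjusted p = 0.00859 and 0.0111, limma) and not at day 8. Drc1, a subunit of the dynein regulatory complex of motile cilia, stood at 0.79 and 0.75 and then at 0.15 and 0.03. In replicate 2 its control channel moved by -0.86 and its treated channel by -1.57, against -0.03 and -0.68 in replicate 1. Pqlc3, Lrtm1 and Ccdc17 completed the set, with mean differences of -0.74, -0.84 and -0.63.

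RNAs of the haemoglobin chains were higher at day 8 in both pairs. Hbb-bt, an adult beta globin, had ratios of -0.78 and -1.35 at day 5, against 0.62 and 0.02 at day 8. The days did not overlap, and the pair differences of 1.40 and 1.37 were nearly equal, which gave the smallest unadjusted p of the 48 (2.32e-05, adjusted p = 0.366, limma). The pair differences of all 4 probes assigned to it lay between 0.91 and 1.40. The alpha globin Hba-a1 stood at -0.77 and -1.26 and then at 0.55 and -0.33. Near-identical globin copies share probe sequence, so each value may hold RNA of its twin. For Hbb-bt the control channel moved too, by -0.57 and -0.69, against 0.84 and 0.68 in the treated channel, so that close to equal shares of its difference lay in either pool. The haem synthesis enzyme Alas2 differed by 0.12 and the blood group protein Ermap by -0.05. Klf1, a transcription factor of red cell precursors, differed by 0.32 in replicate 1 and by -1.43 in replicate 2. Of the 9 erythroid markers tested 3 were higher and 1 lower in both pairs, beside 27.3% and 27.2% of all genes. Their median difference was 0.11, and was just below 0 without day 5 replicate 1 or day 8 replicate 2, the lowest at -0.01. The summed treated intensity of the list, most of it from Hbb-bt and Hba-a1, in units of 1000 was 225 and 163 at day 5 and 420 and 284 at day 8, and the control intensity was 377 and 390 and then 281 and 316. Ermap was not above background in the treated channel. In whole liver more cells of a type and more RNA per cell cannot be told apart.

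Among the named genes higher at day 8, 4 are known from gut or bile duct epithelium, a grouping made after their values were seen. Dmbt1, a secreted mucosal scavenger protein, had ratios of 0.29 and -1.97 at day 5, against 1.52 and 0.64 at day 8. Slc26a3, a chloride and bicarbonate exchanger of the gut, stood at 0.20 and -0.57 and then at 1.08 and 1.22, and passed against control at day 8 (adjusted p = 0.0266, limma) but not at day 5 (adjusted p = 0.563). The gut galectin Lgals4 stood at -0.52 and 0.10 and then at 0.37 and 0.72, and the pair differences of its 2 probes lay between 0.62 and 0.94. Krt19, a keratin of bile ducts, stood at -0.05 and -0.47 and then at 0.79 and 0.28. In each of these 4 genes both day 8 pools lay above both day 5 pools. For Krt19 in replicate 2 the control channel moved by -0.45 and the treated channel by 0.31. Without background subtraction Slc26a3, Lgals4 and Krt19 were not past 1.5-fold in both pairs. The difference of Slc26a3, a dim gene, ran from 0.50 under that setting to 2.51 with scanner processed signals.

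The marker lists of these tissues were mixed in direction. Of 13 intestinal markers tested, a list assembled after these values were seen, 5 were higher and 4 lower at day 8 in both pairs, beside 27.3% and 27.2% of all genes. The 5 include 3 genes that were at least 1.5-fold higher in both pairs, Dmbt1 among them, which also count in the median and the summed intensity. The list's median difference was 0.11, and -0.02 without day 5 replicate 2. Fabp2, the intestinal fatty acid binding protein, went from -0.33 and -0.13 to 0.24 and 0.50, and Tff3, a goblet cell peptide, from 1.16 and 1.51 to 0.46 and 1.37. The summed treated intensity of the list in units of 1000 was 69.4 and 66.2 at day 5 and 77.9 and 90.3 at day 8, and every member was above background. Of 10 bile duct markers, 4 were higher and 3 lower, with Sox9 at -0.09, Epcam at 0.15 and Prom1 at -0.40. Their summed treated intensity in units of 1000 was 10.9 and 14.7 at day 5 and 11.4 and 12.5 at day 8. The median log2 difference between the days was 0.07 over 19 macrophage markers, -0.05 over 13 neutrophil markers, -0.03 over 18 NK and T cell markers and -0.0066 over 18 endothelial markers. Over 21 stellate cell and fibroblast markers it was 0.03, from replicate medians of -0.12 and 0.29 that lay on opposite sides of 0. No gene of these 5 lists passed the test of the difference between the days. With 1 array left out the 5 medians ran from -0.20 to 0.27, and each but the stellate one changed sign under at least 1 omission. Whether other tissue entered the samples was not tested.

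Pancreatic enzymes gave the largest difference in 1 replicate. Pnlip, pancreatic lipase, had ratios of -3.83 and -5.57 at day 5, against 0.50 (replicate 1) and -4.98 (replicate 2) at day 8. Reg1, a secreted protein of acinar cells, stood at -3.38 and -5.78 and then at -0.37 and -4.69. Only the day 8 replicate 1 pool was near control, and without it the differences were -0.28 for Pnlip and -0.11 for Reg1. The same holds for the list of 25 exocrine pancreas markers: its median ratio was -2.44 and -3.35 at day 5 and 0.50 and -3.26 at day 8. The list's median difference was 2.88 in replicate 1 and 0.10 in replicate 2, and -0.38 with the day 8 replicate 1 pool left out. The summed treated intensity in units of 1000 was 61.0 in that pool and 14.3 to 18.0 in the others, against 41.4 to 111 in the control channels. Reg3a and Reg3g were not above background in any treated channel. Reg2, which acinar cells also make, did not share the course: it stood at -2.77 and -4.93 at day 5 and at -2.85 and -4.97 at day 8. Its treated log2 intensity was low, from 6.15 to 6.58, so that a further fall might not have shown.

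Ciart, which encodes a repressor of the circadian clock, had ratios of -1.17 and -0.33 at day 5, against -0.15 and 0.49 at day 8. It was higher at day 8 by 1.01 and 0.82 within the pairs, and the difference lay in the treated channel (0.96 and 0.96, against -0.05 and 0.14). Other clock genes differed less. Arntl, the activating partner of Clock, was lower, from 2.07 and 1.18 to 1.82 and 0.59, and Clock went from 0.93 and 0.75 to 0.72 and 0.48. Per1 went from -0.11 and -0.16 to 0.13 and 0.14. Per2 stayed where it was, at 1.45 and 1.87 and then at 1.5 and 1.78. Of 20 clock genes tested, 9 were higher and 4 lower in both pairs, beside 27.3% and 27.2% of all genes, and the list's median difference was 0.06 (0.04 to 0.20 with 1 array left out). The labels do not give the hour of day at which mice were killed.

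Csad, which makes the taurine precursor hypotaurine from cysteine sulfinate, had ratios of 0.19 and 0.13 at day 5, against 0.95 and 0.78 at day 8. It passed against control at day 8 (adjusted p = 0.00914, limma) and not at day 5 (adjusted p = 0.227), and its replicates lay close together on both days. Its difference was 0.71 (95% interval 0.48 to 0.93, adjusted p = 0.419). Of 27 enzymes of amino acid breakdown tested, Csad included, 15 were higher and 2 lower at day 8 in both pairs, beside 27.3% and 27.2% of all genes, with a median difference of 0.13. Sds, serine dehydratase, went from -0.90 and -1.04 to -0.52 and -0.39, and the glutaminase Gls2 from -0.14 and -0.38 to 0.06 and -0.02. With 1 array left out in turn that median ran from -0.07 to 0.25, and was below 0 without day 5 replicate 2 or day 8 replicate 1.

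The other named genes higher at day 8 were Prim2, Fam171b, Clec2d, Slc14a1 and Crym. Prim2, the large subunit of DNA primase, stood at -0.92 and -1.20 and then at 0.11 and 0.83. In replicate 1 its control channel moved by -0.75 and its treated channel by 0.28. Clec2d, a lectin recognised by a natural killer cell receptor, stood at -0.27 and -0.73 and then at 0.51 and 0.11. Crym, a thyroid hormone binding protein, had replicates far apart, at 0.48 and -1.70 and then at 1.13 and -0.12. Slc14a1, a urea transporter, differed by 0.80 and 0.71 at the probe used and by 0.19 and 0.52 at its dimmer probe, and Fam171b by 1.19 and 0.86 and by 0.12 and 0.19. Prim2 and Slc14a1 differed between days by 0.72 and 0.26 without background subtraction, and by 2.30 and 1.44 with scanner processed signals.

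**Figure D2:**
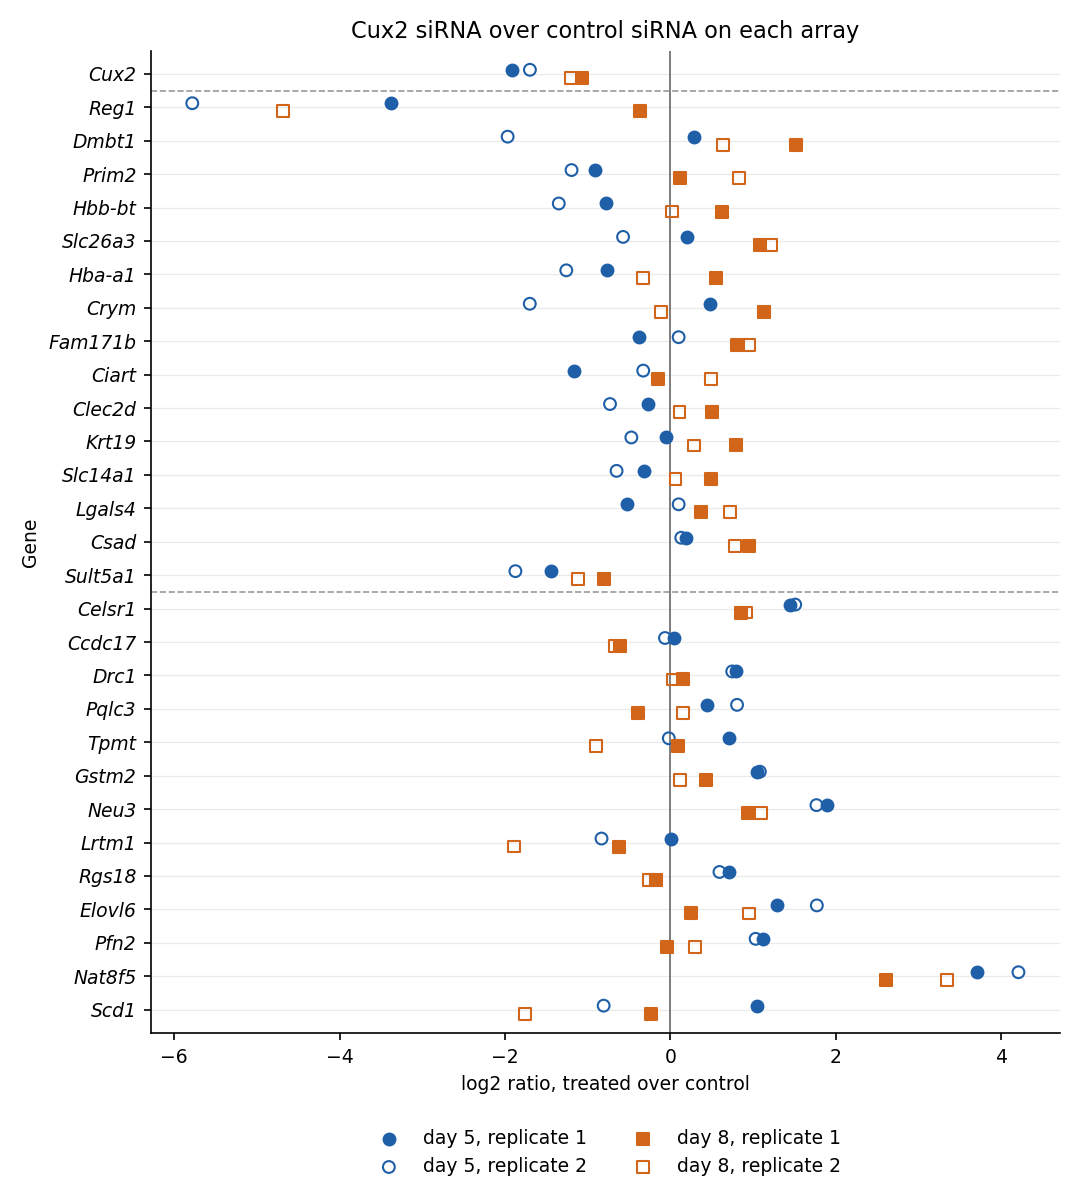
Treated over control log2 ratio of Cux2 and of the named genes at least 1.5-fold apart in both pairs, with 1 point per array; circles are day 5 and squares day 8, filled for replicate 1 and open for replicate 2. Genes above the lower dashed line were higher at day 8 and genes below it lower. Reg1 and Scd1 show replicates far apart on the same day, whereas the 4 points of Celsr1 fall in 2 tight groups near 1.48 and 0.89.

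**Figure D3:**
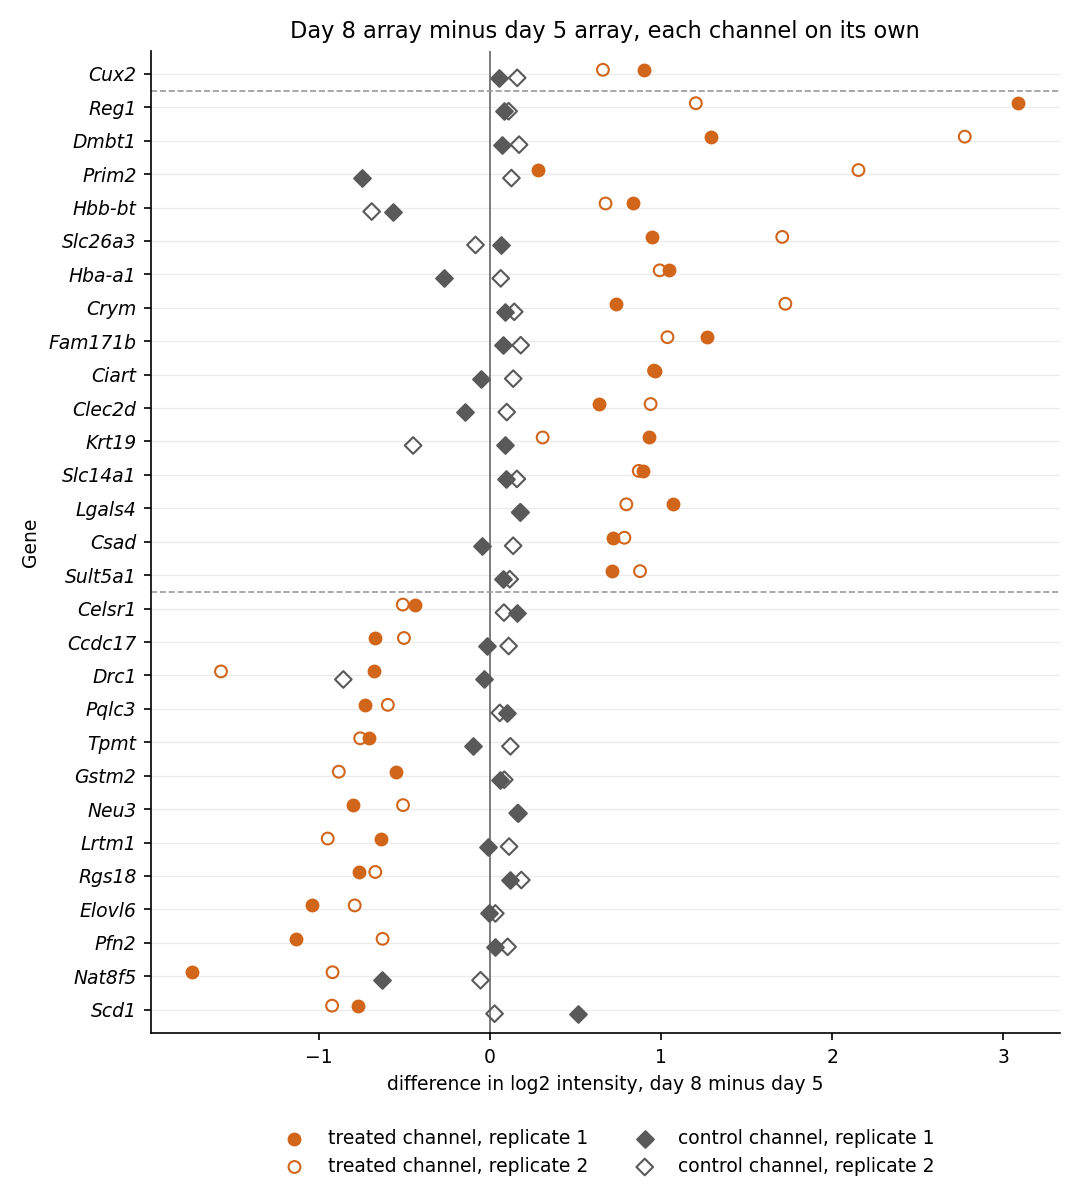
Day 8 array minus day 5 array for the treated channel (orange circles) and the control channel (grey diamonds) of the same genes, in log2 intensity, filled for replicate 1 and open for replicate 2. The control channel stays near 0 for Cux2, Elovl6 and Csad. It moves by -0.57 and -0.69 for Hbb-bt, by -0.75 in replicate 1 for Prim2 and by -0.86 in replicate 2 for Drc1.

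Against control, 1851 genes (7.38%) passed higher and 2365 (9.43%) lower at day 5, and 1574 (6.27%) higher and 2021 (8.05%) lower at day 8. The days may share control pools, which the labels leave unsaid. The summed control intensity of pancreas markers (units of 1000, day 5 then day 8) was 41.4 and 42.5 in replicate 1, against 102 and 111 in replicate 2. For hepatocyte markers it was 1887 and 1756, against 2776 and 2847. The erythroid sums, 377 and 281 against 390 and 316, did not part the replicates in this way. Whether same-numbered arrays shared a control pool was not tested. To describe what persisted, genes were taken that passed an adjusted p of 0.05 in the mean of both days (3708 higher, 14.8%, and 4089 lower, 16.3%, of genes tested) and lay at least 2-fold from control in that mean. These were 160 raised and 526 lowered genes. Choosing them by the mean of both days avoids a choice by day 5 alone, which would by itself make day 8 appear smaller. The fit for that mean took the arrays as independent, although same-numbered arrays deviated from their day's mean together (correlation over genes 0.50). Its p-values may therefore be too small, and the counts that rest on them too large. A gene was called held when the 95% interval of its difference between days lay within 1.5-fold, returning when it was apart between days towards control, and growing when it was apart away from control. Of the 160 raised genes, 100 (62.5%) were held, 5 were returning, 0 were growing and 55 were undecided. Of the 526 lowered genes, 377 (71.7%) were held, 3 were returning, 1 was growing and 145 were undecided. Over all genes tested, 92.7% had an interval within 1.5-fold. The returning genes with a usable symbol were Nat8f5, Elovl6, Neu3, Celsr1, Sult5a1, Reg1 and Pnlip, while the growing gene had none. Reg1 and Pnlip met the rule largely through the day 8 replicate 1 pool, without which their differences were -0.11 and -0.28. In replicate 2 Pnlip lay just past the 1.5-fold limit.

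The median raised gene lay slightly closer to control at day 8, and the median lowered gene did not. The median ratio of the raised genes was 1.27 and 1.45 on the day 5 arrays and 1.20 and 1.28 on the day 8 arrays. The median percentage of the day 5 log2 ratio that was still present at day 8 was 90.4% (quartiles 80.4% and 101.5%), with 89.9% in replicate 1 and 90.0% in replicate 2. For the lowered genes it was 101% (quartiles 90.7% and 109%), with 101.2% and 100.3% in the replicates. In both pairs 72 of the 160 raised genes (45.0%) lay closer to control at day 8 and 23 (14.4%) lay further away. Of the 526 lowered genes, 134 (25.5%) lay closer and 163 (31.0%) further away. Over all genes tested, 27.2% were lower and 27.3% higher at day 8 in both pairs. The raised genes' shift was small, with a median of -0.13. Their treated channel was lower by 0.09 and 0.06 in the pairs, whereas that of the lowered genes was higher by 0.00 and 0.05. Their control channel was higher by 0.01 and 0.09, against 0.04 and 0.09 for the lowered genes, so that its rise was not particular to raised genes. The difference between raised and lowered genes was not tested. Leaving out 1 array in turn gave 83.3% to 103.4% for the raised genes, the highest without day 8 replicate 1, and 88.7% to 112.8% for the lowered genes. With median centring in place of loess only 269 genes passed in the mean of both days, of 7797, and 179 were held.

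**Figure D4:**
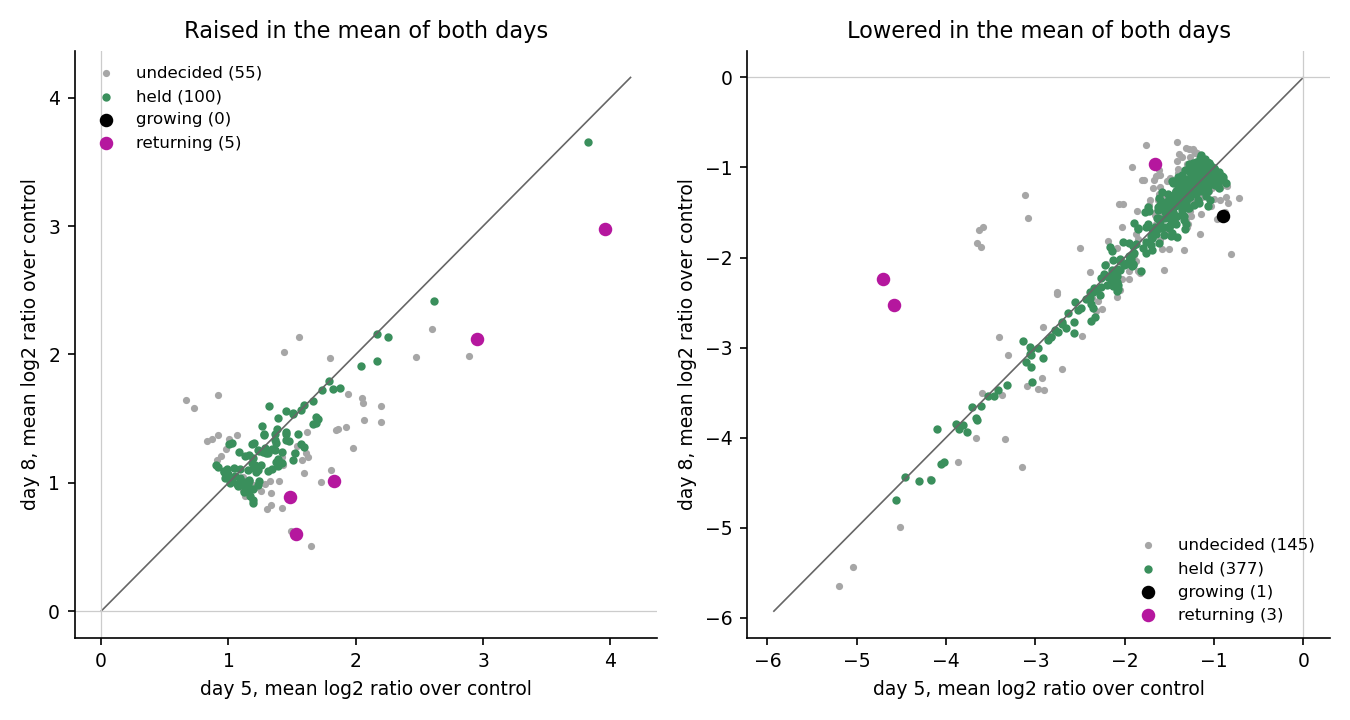
Mean log2 ratio over control at day 5 (horizontal axis) and at day 8 (vertical axis) of the 160 raised genes (left) and the 526 lowered genes (right), coloured by class; the line marks equal ratios. Held genes follow the line over the whole range, the returning raised genes lie below it, and a group of lowered genes well above the line on the right holds the pancreatic enzymes.

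The held raised genes with the largest means were Nat8, Gdpd3, Acot1, Slc17a8, Ces1e, Tmc7, Colec10, Pnpla3, Per2 and Col27a1. Gdpd3, a glycerophosphodiester phosphodiesterase, stood at 2.24 and 2.98 on day 5 and at 2.09 and 2.74 on day 8. Acot1, which releases fatty acids from coenzyme A, stood at 2.08 and 2.43 and then at 2.02 and 2.25, and its difference was -0.11 (95% interval -0.34 to 0.11). The vesicular glutamate transporter Slc17a8 stood at 2.10 and 2.23 and then at 2.08 and 2.24. Ces1e, a carboxylesterase, stood at 2.18 and 2.16 and then at 2.00 and 1.90. Pnpla3, a lipid droplet hydrolase, held its mean of 1.73 with pairs that ran opposite ways, -0.34 and 0.33. All 10 passed against control on both days, with adjusted p from 0.00155 to 0.0103 (limma).

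The held lowered genes with the largest means were Tgtp1, Saa1, Gbp3, Ifi44, Lcn2, Gbp8, Reg2, Saa3, Cxcl10 and Oasl2, and most of them are induced by interferon or in the acute phase. Interferon signalling switches on GTPases, nucleases and antiviral sensors in most cells, and the acute phase response raises serum amyloids and lipocalin in hepatocytes. Tgtp1, an interferon-inducible GTPase, stood at -4.02 and -4.89 on day 5 and at -4.09 and -4.78 on day 8, so that its mean level was 4.55% and then 4.62% of control. The chemokine Cxcl10 stood at -3.20 and -4.43 and then at -3.23 and -4.49. Serum amyloid Saa1 stood at -3.55 and -5.06 and then at -3.55 and -5.42, with a wide gap between replicates and a narrow one between days. The iron-binding lipocalin Lcn2 stood at -3.61 and -4.43 and then at -3.84 and -4.71. These genes are held only as compared within pairs: with 1 array left out, their differences ran from -1.13 (Reg2) to 1.37 (Gbp8).

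Some interferon effectors lay further below control at day 8. All 22 tested passed against control in the mean of both days and fell, 17 of them were held, and 15 were lower and 1 higher at day 8 in both pairs, beside 27.2% and 27.3% of all genes, with a list median of -2.47 at day 5 and -2.68 at day 8. Ifit1, an RNA-binding antiviral protein, stood at -4.30 and -4.74 and then at -5.01 and -4.96. Rtp4 stood at -2.72 and -3.13 and then at -3.18 and -3.50, and Usp18, which removes the ubiquitin-like Isg15, at -2.84 and -3.23 and then at -3.20 and -3.56. Igtp, from a separate list of interferon-inducible GTPases, stood at -3.09 and -4.64 and then at -3.50 and -5.04, the largest fall in that list. Of the 14 GTPases tested, 7 were lower and 3 higher in both pairs, with a median difference of -0.04. Of 19 interferon sensors, receptors and factors, 5 were lower and 6 higher, with a median difference of -0.0060. The differences of Ifit1, Rtp4, Usp18 and Igtp did not pass (adjusted p 0.577 to 0.699, limma). The effectors' median difference of -0.12 ran from -0.26 to 0.06 when 1 array was left out, and was above 0 without day 5 replicate 1 or day 8 replicate 2. Among 29 acute phase genes, 8 were lower and 1 higher in both pairs, beside the same shares of all genes, and the median difference of -0.11 ran from -0.54 to 0.28 with 1 array left out, above 0 in the same 2 cases. Orm2, an acid glycoprotein of plasma, was the furthest apart, at -3.07 and -3.60 and then at -3.51 and -4.52.

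The median cyclin and mitosis gene stood slightly closer to control at day 8 in both replicates, although no member passed the test of the difference. Of 27 cyclin and mitosis genes tested, 24 passed below control in the mean of both days, and 19 were higher and 0 lower at day 8 in both pairs, beside 27.3% and 27.2% of all genes. Stmn1, which destabilises microtubules, stood at -1.46 and -1.54 and then at -1.23 and -1.06. Cdc20, which activates the ubiquitin ligase of anaphase, stood at -1.43 and -1.55 and then at -1.27 and -1.01. The ubiquitin-conjugating enzyme Ube2c stood at -1.22 and -1.34 and then at -1.02 and -0.89. In each of the 3 the day 8 pools lay above both day 5 pools, yet none reached 1.5-fold in both pairs. These 27 genes had a median ratio of -0.89 and -1.06 at day 5, against -0.78 and -0.81 at day 8. Their median difference was 0.12, from 0.09 to 0.19 with 1 array left out and from 0.05 to 0.17 under the other settings. At Stmn1 a dimmer probe gave -0.33 and 0.22. Of 22 DNA replication genes, 10 were higher and 1 lower in both pairs, beside those same shares of all genes. Pole, the catalytic subunit of DNA polymerase epsilon, stood at -1.0 and -1.17 and then at -0.66 and -0.61. The replication list's median difference was 0.31 in replicate 2 and -0.01 in replicate 1, so that its members as a list were closer to control in 1 replicate.

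The stress lists did not share a direction between days. Of 19 heat shock chaperones tested, 13 passed above control in the mean of both days, and 0 were higher and 13 lower at day 8 in both pairs, beside 27.3% and 27.2% of all genes. Hsp90aa1, an inducible cytosolic chaperone, stood at 1.56 and 1.65 and then at 1.01 and 1.46. Hsph1, a nucleotide exchange factor of the Hsp70 machine, stood at 1.38 and 1.76 and then at 1.21 and 1.41. Hspa1b, an inducible Hsp70, stood at 0.63 and 0.02 and then at 0.05 and -0.31. The chaperones' median difference was -0.12, from -0.12 to -0.10 with 1 array left out. Of 16 targets of p53, 10 were lower and 3 higher in both pairs, beside 27.2% and 27.3% of all genes. Their median difference of -0.23 ran from -0.34 to -0.11 with 1 array left out. Gdf15, a stress-induced cytokine, stood at 0.43 and 0.72 and then at -0.13 and 0.24, and the cyclin Ccng1 at 0.01 and 0.60 and then at -0.30 and 0.07. Of 18 endoplasmic reticulum chaperones, 7 were higher and 4 lower in both pairs, with a median difference of 0.06 that ran from -0.01 (without day 8 replicate 1) to 0.15. Of 19 genes of the ATF4 and amino acid response, 6 were higher and 4 lower, with a median difference of 0.07. With 1 array left out it lay between -0.06 and 0.04, below 0 without day 5 replicate 2 or day 8 replicate 1.

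Sex-biased liver genes, the class to which Cux2 belongs, differed in part. Cux2 is known to repress male-biased genes and to induce some female-biased ones in female liver. Of 33 female-biased genes tested, Cux2 included, 14 were higher and 4 lower at day 8 in both pairs, beside 27.3% and 27.2% of all genes. Their median difference of 0.14 ran from 0.08 to 0.29 with 1 array left out. Abcd2, a peroxisomal transporter of very long-chain acyl-CoA, lay below control at day 5 and closer to it at day 8, at -1.22 and -1.05 and then at -0.86 and -0.06. The receptor kinase Ntrk2 lay above control and further up at day 8, at 0.98 and 1.89 and then at 1.64 and 2.41. The monooxygenase Fmo2 went from 0.00 and 0.47 to 0.43 and 1.01, and the transporter Slco1a4 from 0.25 and 0.66 to 0.65 and 1.23. Of 36 male-biased genes, 7 were higher and 10 lower in both pairs, close to or under those shares of all genes. Nox4, an oxidase that makes hydrogen peroxide, stood at 2.41 and 1.99 and then at 1.32 and 1.62. The complement component C9 stood at 0.51 and 0.58 and then at -0.03 and 0.10. Their median difference had opposite signs in the pairs, 0.14 and -0.15.

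The growth hormone signalling genes held 2 feedback inhibitors that were closer to control at day 8. Socs2 stood at -1.36 and -1.27 and then at -0.75 and -0.80, with no overlap between days. Cish stood at -0.81 and -1.48 and then at -0.07 and -1.20. Bcl6, a male-biased repressor regulated by growth hormone, differed by -2.08 in replicate 1 and by -0.04 in replicate 2. Of 19 genes in the list, 7 were higher and 2 lower in both pairs, beside 27.3% and 27.2% of all genes, and the median difference was 0.06 (-0.01 to 0.26 with 1 array left out, the lowest without day 8 replicate 1). Among 31 genes of fatty acid oxidation and its regulator PPAR alpha, 17 were higher and 6 lower at day 8 in both pairs, beside those same shares of all genes. Their median difference of 0.10 ran from -0.03 (without day 5 replicate 1) to 0.23 with 1 array left out. Cpt1a, which admits fatty acids to mitochondria, went from -0.66 and -0.24 to -0.19 and 0.17, while the thioesterase Acot2 went from 0.55 and 0.15 to -0.24 and -0.19. The Acot2 probe was dim, with a mean log2 intensity of 6.33, against 15.1 for Cpt1a.

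**Figure D5:**
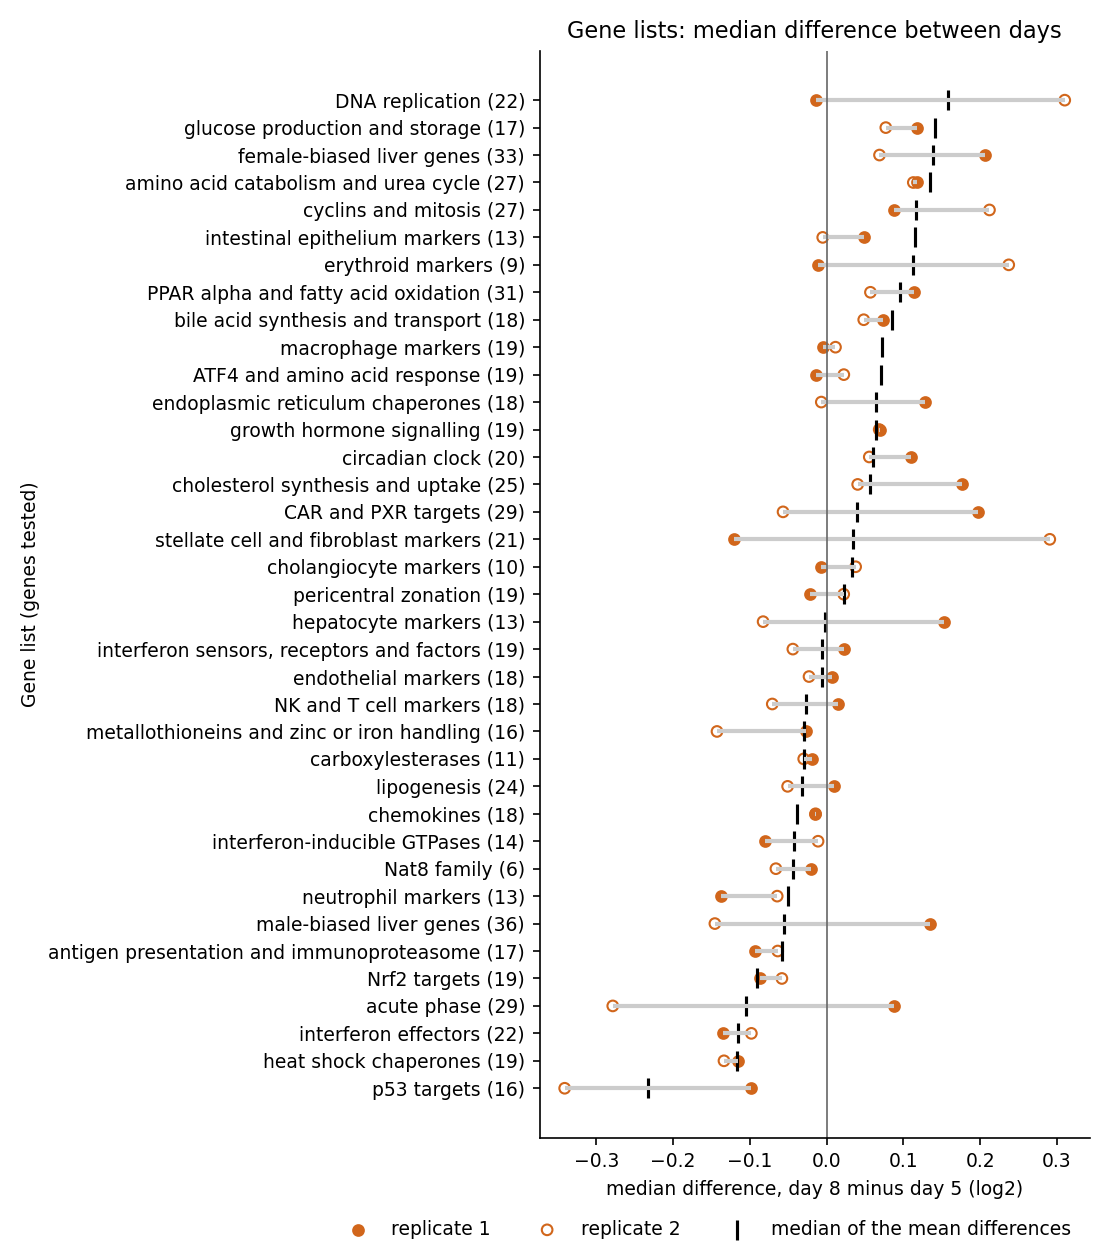
Median difference between days, day 8 minus day 5, over the tested genes of each list, in replicate 1 (filled), replicate 2 (open) and for the mean of both (bar); exocrine pancreas markers, at 2.88 and 0.10, are left out for scale. Heat shock, interferon effector and p53 lists lie below 0 in both replicates, cyclins and mitosis and amino acid catabolism above it, and DNA replication and acute phase lists have replicates of opposite sign.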

How the data were processed

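Arrays were read with Feature Extraction 10.7.1.1 (Agilent), per the file headers. The intensity used is the deposited one: medians over the pixels of a spot, and over those of the background around it. The authors' table of log10 ratios equals the scanner's ratios, with the sign turned in replicate 2, and so is treated over control; each column has a median of 0. It served as an alternative, as did the scanner's processed intensity values.

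In limma 3.58.1 (R 4.3.3) background was corrected by normexp (offset 50) and ratios by loess within arrays, the 1639 control spots at weight 0. Outlier spots were dropped. Probes well above background in at least 2 of 8 channel readings were kept (31765), and the brightest probe stood for a gene. Symbols came through RefSeq accessions (GRCm38.p6, 23374 of 41174 probes). Channel levels were taken after loess and Aquantile. The fit of the difference held the replicate number as a term (1 residual degree of freedom, 3.68 from the prior). Ratios over control were fitted without it (2 and 2.77). P-values were adjusted by Benjamini-Hochberg over 25092 genes. The fit of the difference was checked on simulated data with known differences. Recovery of changed genes was required there only with a spread smaller than that of the data. The fits over control were not checked in this way.

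The pairing rests on the labels: same-numbered arrays share their dye orientation. As its check, same-numbered arrays deviated from their day's mean together (correlation over genes 0.50), which dye and control RNA in common could give as well as pairing of the mice. Day 5 and day 8 ratios may share control pools, so no other relation between them is given. The number of arrays limits the precision.

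Members, the 37 gene lists (739 of 808 members tested) and tests were chosen with earlier results of these data known. Named genes were up to 15 each way by the smaller pair difference, up to 10 each of the returning and held genes by class, up to 5 growing, and up to 4 per list, with others where a role needed them. Reg2 and other genes of 2 lists count in both. The list of intestinal markers was added after values were seen.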

Additional observations from a re-analysis of the deposited data

Results flagged for a closer look

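6 of the named genes stood on one side of control in both day 5 pools and on the other side in both day 8 pools, while differing at least 1.5-fold in each pair. For 5 of them the day 8 pools were above control: Hbb-bt differed by 1.39, Prim2 by 1.53, Clec2d by 0.81, Krt19 by 0.80 and Slc14a1 by 0.76 on the log2 scale. Rgs18 ran the other way, by -0.87. In limma's test of the difference itself none passed (adjusted p 0.366 to 0.492). Over all 48 and 24 genes apart in both pairs, 15 and 3 crossed control in this way. In Hbb-bt and, for replicate 1, in Prim2 the control channel also moved, and its part was not tested.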

How the results depend on the processing

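No gene passed for the difference between days under any of the 14 alternatives, the smallest adjusted p of a named gene being 0.218. Without the replicate number as a term (no replicate block) 244 genes were held, against 477. With it as a replicate block 11255 genes passed in the mean of both days, against 7797. Scanner processed signals and the authors' log10 ratios gave 357 genes higher in both pairs under either, 276 and 275 lower, 42 returning and 31 growing; 45 of the 48 and 23 of the 24 genes were among them. Their raised genes retained 94.2%. Without background subtraction 23 were higher, 10 lower, 2 returning and 225 held, with 87.9% and 102.5% retained by raised and lowered genes. Median centring left 4 returning, 0 growing, 179 held and 269 in the mean of both days, with 95.5% retained by raised genes. The treated channel alone gave 49 lower. Raised genes retained 91.5% with the mean of all probes and 90.0% with an intensity trend. Leaving out 1 array at a time gave 141 to 174 held genes, 3902 to 5464 in the mean of both days, and 83.3% to 103.4% and 88.7% to 112.8% retained; counts over both pairs then have no value. Leaving out arrays moved the difference of Pnlip between -0.28 (without day 8 replicate 1) and 5.20 (without day 8 replicate 2), and that of Reg1 between -0.11 and 4.21. Of 686 values for named genes, none passed the test, 637 kept their direction and 49, from 18 genes, did not; 34 of the 49 came from leaving out an array, which drops the replicate number from the fit. Those omissions moved Gbp8 between -0.97 and 1.37, Reg2 between -1.13 and 1.02, Saa1 between -1.12 and 0.76, Saa3 between -1.01 and 0.65, Cxcl10 between -0.67 and 0.59, Lcn2 between -0.69 and 0.18, Ifi44 between -0.72 and 0.25, Oasl2 between -0.53 and 0.24, Tgtp1 between -0.41 and 0.46, Gdpd3 between -0.57 and 0.17, Acot1 between -0.29 and 0.062, Colec10 between -0.37 and 0.19, Per2 between -0.23 and 0.19, Pnpla3 between -0.26 and 0.25, Slc17a8 between -0.086 and 0.074, and Tmc7 between -0.15 and 0.15. With the treated channel alone Colec10 turned to 0.072, Tmc7 to 0.016 and Tgtp1 to -0.30. Without background subtraction Ifi44 turned to 0.041 and Reg2 to 0.0040. With the mean of all probes Per2 turned to 0.048, Slc17a8 to 0.023, Tmc7 to 0.017 and Tgtp1 to -0.011. Median centring turned Slc17a8 to 0.013 and Tmc7 to 0.022, and scanner signals and the authors' ratios both turned them to 0.025 and 0.033. The cause was not tested. Of 532 list medians, 147 moved by more than the spread between pairs. Pools of 2 or 3 mice, 2 a day, limit what can be seen.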
